A study of Mus musculus with 9 samples.

Results

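The core genes of autophagy and of the lysosomal membrane were examined in primary murine lung endothelial cells (MLEC). The cells came from mice in which c-Jun N-terminal kinase (JNK) genes were targeted for deletion in endothelium, and from control mice. The set has 40 genes that were listed by name: kinases and lipid kinases that start an autophagosome, lipid transfer proteins, conjugation enzymes, ATG4 proteases, the ATG8 family, cargo receptors, the factors *Tfeb* and *Tfe3*, and *Lamp1* and *Lamp2*. Their symbols were looked up among the 37104 loci of the expression tables, and 39 of the 40 had a row. *Map1lc3b*, the LC3B gene, is not analysed here. Expression was quantified by RNA-seq as FPKM, the number of fragments per transcript length and library size, in 3 groups of 3 libraries. Each library came from a separate isolation, for which the lungs of 4 mice were pooled and cells were selected with beads that bind ICAM2 and cultured.

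E3KO mice carried *Cdh5*-Cre, which is driven by the promoter of the endothelial gene for VE-cadherin, with *Mapk8* and *Mapk9*, the genes of JNK1 and JNK2, flanked by LoxP sites. In ECtrl mice, *Cdh5*-Cre was combined with intact copies of both genes, and EfCtrl mice carried the LoxP alleles of both genes without Cre. The *Mapk10* (JNK3) null allele was homozygous in all 3 groups, so that none of the comparisons is with cells that have all JNK genes. All mice were C57BL/6J adults of 10 to 12 weeks.

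Autophagy delivers cytoplasm and organelles to the lysosome. The ULK1 kinase complex and the class III phosphatidylinositol 3-kinase (PI3K) start a membrane sac, ATG2 and ATG9 supply it with lipid, and ubiquitin-like conjugation attaches ATG8 proteins (LC3 and GABARAP) to it, where cargo receptors such as p62 (encoded by *Sqstm1*) bind. The factors TFEB, TFE3 and MITF and the FoxO factors are known to transcribe many of these genes, and JNK is known to restrain FoxO-dependent autophagy genes in neurons. The comparison of E3KO with each control group addresses whether the same genes are higher in endothelial cells in which the JNK1 and JNK2 genes were targeted.

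The targeted genes were measured first. *Mapk8* (chromosome 14, 33377898 to 33447158 of mm10) was at 17.0, 14.996 and 17.9 FPKM in ECtrl, 16.7, 14.05 and 15.1 in EfCtrl and 20.7, 8.77 and 4.65 in E3KO. Values are given throughout in the order of replicates 1, 2 and 3. Replicates 2 and 3 of E3KO were below every control library, whereas the library labelled E3KO replicate 1 was above every control library and so goes against its label for this gene. The log2 difference between E3KO and the mean of both controls on the log2(FPKM + 1) scale was -0.67 (SE 0.35, adjusted p = 0.285) with 9 libraries and -1.18 (adjusted p = 0.0298) without the library labelled E3KO replicate 1, in a limma fit across all genes. *Mapk9* (chromosome 11, 49846751 to 49886421) was at 44.1, 50.9 and 47.9 FPKM in ECtrl, 45.5, 42.7 and 47.9 in EfCtrl and 27.6, 35.1 and 20.7 in E3KO, and all 3 E3KO libraries were below every control library. Its log2 difference was -0.75 (SE 0.15, adjusted p = 0.0359), and -0.76 (adjusted p = 0.0642) without the library labelled E3KO replicate 1. By control group it was -0.79 (adjusted p = 0.063) against ECtrl and -0.72 (adjusted p = 0.1) against EfCtrl, neither of which passed. With no FPKM minimum its adjusted p was 0.0597. The call of *Mapk9* held in 1 of the 9 fits that left out a library, without E3KO replicate 2, and the adjusted p of the others reached 0.0983. *Mapk10* was at most 0.270 FPKM in any library. Exact two-sided permutation tests of 3 against 6 libraries gave p = 0.0833 for *Mapk8*, p = 0.0119 for *Mapk9* (the smallest that 84 splits allow) and p = 0.75 for *Mapk10*, or 0.125, 0.0357 and 0.75 after Benjamini-Hochberg adjustment over the 3 genes. By immunoblot, the paper reports less JNK in MLEC of E3KO mice than of controls. Whole-gene FPKM does not measure the deletion itself, so the *Mapk8* values do not settle the label of the library labelled E3KO replicate 1.

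The same library also stood apart in its values as a whole. The FPKM of uniquely named loci summed to 9841810 in it and to between 656089 and 908401 in the other 8, and 96.4% of its sum lay in 10 symbols. When symbols with a mean of at least 5000 FPKM were set aside, the sums of all 9 libraries lay between 388537 and 433172. Of the 37 core genes tested, those whose mean reached 2 FPKM in some group, 16 were lower and 9 higher in it than in any other library. Over all 10605 genes tested, it held the lowest value for 39.5% and the highest for 20.3%, against 43.2% and 24.3% of the core genes. Results are therefore given with and without it. Fragment counts cannot be read from FPKM, so depth per library was unknown and counting intervals could not be computed.

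The label of the cells was checked against endothelial markers. *Cdh5* ranged from 613 to 943 FPKM and *Pecam1* from 643 to 798 over the 9 libraries, whereas *Vwf*, the gene of von Willebrand factor, was at most 2.15 FPKM. The epithelial factor *Nkx2-1* was listed at 0 in each. In bulk samples such as these, fewer cells of a type and less RNA per cell cannot be told apart. All 39 core genes with a row had a value above 0 in every library. In the controls, 11 core genes had a mean above 50 FPKM, 19 lay between 10 and 50 FPKM and 9 below 10 FPKM. The most abundant were *Lamp1* at 795 ± 36.4 (SD, n = 6) FPKM, *Gabarap* at 532 ± 25.96 (SD, n = 6), *Lamp2* at 447 ± 17.9 (SD, n = 6) and *Sqstm1* at 425 ± 30.1 (SD, n = 6). *Lamp2* and *Sqstm1* are neighbours in this order and did not differ beyond their spread. The least abundant were *Tfeb* and the protease gene *Atg4d*, both below 2 FPKM in every group and so outside the fit. The coefficient of variation of the FPKM over the 6 control libraries ran from 3.88% for *Uvrag* to 48.2% for *Atg16l2*, with a median of 9.17% over the 39 genes.

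**Figure D1:**
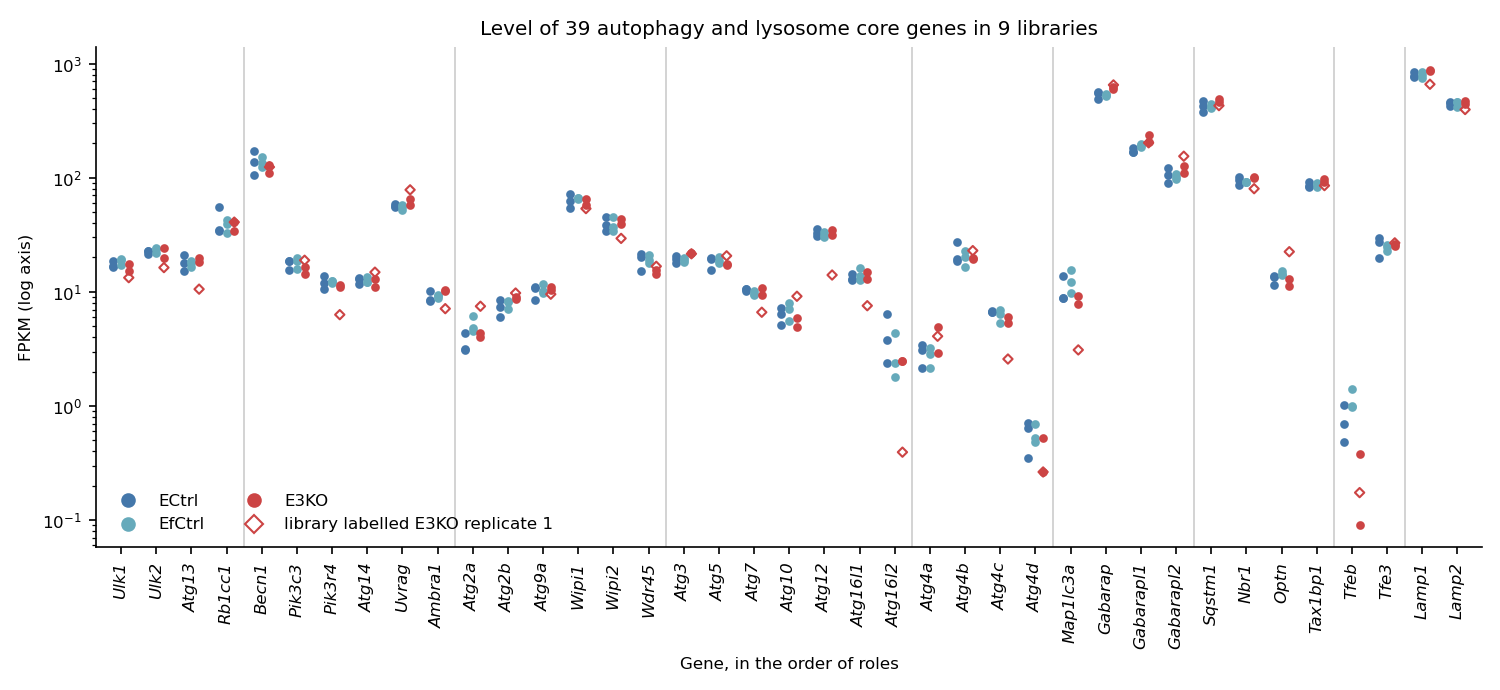
FPKM of the 39 core genes with a row on a log axis, in the order of their roles from the initiation kinases to the lysosomal membrane proteins, with 1 point per library and vertical lines between roles. Levels span *Atg4d* and *Tfeb* below 2 FPKM to *Lamp1* at 795 FPKM in the controls, and the open diamonds of the library labelled E3KO replicate 1 lie apart from the other points for genes such as *Atg12* and *Pik3r4*.

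No rise of the core genes was detected in E3KO. None of the 37 tested passed an adjusted p of 0.05 in limma, with Benjamini-Hochberg adjustment over 10605 genes, in any comparison. Against the mean of both controls 0 were called, beside 4.8% of all genes tested (509 of 10605). At an unadjusted p under 0.05, 4 core genes were higher and 1 was lower, beside 6.93% of all genes higher and 16.9% lower. Without the library labelled E3KO replicate 1, 0 core genes were called beside 3.58% of all genes, and 1 was higher and 1 lower at an unadjusted p under 0.05, beside 8.37% and 14.2% of all genes. The number of calls over all genes rested on E3KO replicate 3, without which it was 9.

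Against ECtrl alone, which carries Cre, 0 core genes were called, beside 2.25% of all genes. At an unadjusted p under 0.05, 3 were higher and 0 lower, beside 6.02% and 14.1% of all genes. Against EfCtrl alone, which carries the LoxP alleles, 0 were called, beside 0.952% of all genes, with 1 higher and 1 lower at an unadjusted p under 0.05, beside 5.02% and 12.7% of all genes. Both comparisons use the same E3KO libraries. Between the controls limma called 0 core genes and 0.0% of all genes, and at an unadjusted p under 0.05 it gave 0 core genes in either direction, beside 1.01% of all genes higher and 0.83% lower in EfCtrl. The smallest adjusted p of a core gene was 0.155 against the mean of both controls, 0.154 against ECtrl and 0.246 against EfCtrl. Without E3KO replicate 3 the calls over all genes were 0 against ECtrl and 1 against EfCtrl.

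The intervals limit how large a rise could have been missed. The 95% interval of the log2 difference had its upper bound below 1, a doubling on the log2(FPKM + 1) scale, for all 37 core genes tested and below 0.5 for 32 of them, and the highest bound was 0.77 for *Atg4a*. Without the library labelled E3KO replicate 1 the highest bound was 0.82, again for *Atg4a*. Lower bounds were above -0.5 for 28 genes and reached -1.60 for *Atg16l2*. This scale understates the change of genes with low FPKM.

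The median log2 difference of the core genes was -0.0076, beside -0.083 over all genes tested. Of the 37 differences, 16 were above 0 and 21 below. Both medians moved with the scaling of the libraries. The FPKM that the authors give for each whole group put the core genes at a median of 0.12 and all genes at 0.045. Relative to all genes the core genes were 0.075 higher by the libraries and 0.078 higher by the group values, and 0.083 higher without the library labelled E3KO replicate 1.

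**Figure D2:**
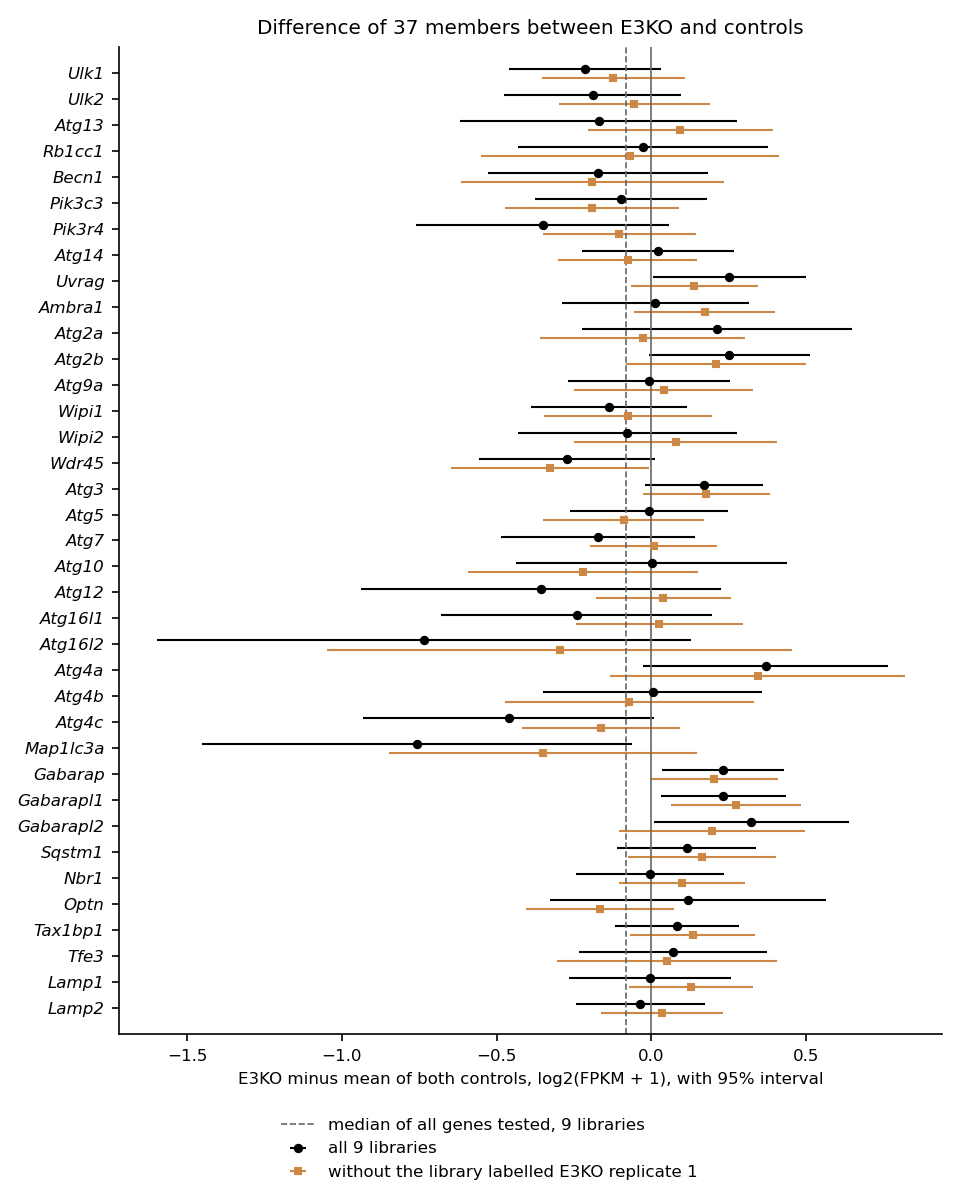
Difference in log2(FPKM + 1) between E3KO and the mean of both controls for the 37 core genes tested, with 95% intervals from limma, over 9 libraries (black) and without the library labelled E3KO replicate 1 (brown). The dashed line is the median of all genes tested at -0.083. Intervals of 5 genes exclude 0 with 9 libraries, which are those of *Uvrag*, *Map1lc3a*, *Gabarap*, *Gabarapl1* and *Gabarapl2*.

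TFEB and its relatives bind an E-box in the promoters of autophagy and lysosome genes. The E-box, CACGTG, and its extended form TCACGTGA, the core of the CLEAR element that TFEB binds, were searched for in windows of 250 bases before to 50 bases after the start of each gene (RefSeq, GRCm38.p6). Windows were found for 33 of the 39 core genes with a row. CACGTG, which reads the same on both strands, was in a window of 5 of these (15.2%) and of 8.09% of all 27025 genes in the table. TCACGTGA, which contains CACGTG, was in 1 core gene and in 1.12% of all genes. Sites of other factors were searched for on both strands. TGANTCA, with any base at N, is looser than the AP-1 site TGA(C/G)TCA that the JNK substrate c-Jun binds. It was in 1 core gene and 8.97% of all genes. The core gene was *Tfe3*, with TGAATCA, which is not the stricter AP-1 site. TGACGTCA (CRE) was in 2 core genes and 2.03% of all genes, and GTAAACA (FoxO) in 0 and 4.05%. A match describes letters in a window and does not show that a factor binds there. For 4 core genes (*Atg7*, *Wdr45*, *Atg4b* and *Gabarapl1*) the nearest window starts more than 1000 bases from the start of the locus in the expression tables, by 27999 bases for *Atg7*, so that their windows may not cover the start that was measured. Of the other 29, 4 hold an E-box. Their stretches are shown 5′ to 3′ because they hold the motif attributed to the MiT/TFE factors. Capitals mark the motifs.
*Lamp1*, chr8:13159075-13159160, strand +: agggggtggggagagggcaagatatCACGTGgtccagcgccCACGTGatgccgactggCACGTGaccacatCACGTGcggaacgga
*Atg3*, chr16:45158710-45158789, strand +: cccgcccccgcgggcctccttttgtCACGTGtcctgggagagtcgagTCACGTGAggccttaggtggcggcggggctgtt
*Atg5*, chr10:44268300-44268345, strand +: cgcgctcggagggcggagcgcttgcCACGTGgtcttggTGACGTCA
*Atg14*, chr14:47568430-47568460, strand -: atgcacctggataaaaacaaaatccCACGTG

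The *Lamp1* stretch holds 4 E-boxes, the first beginning 61 and the last 15 bases before the start. The *Atg3* stretch holds an E-box that begins 94 bases before the start and the extended form 72 bases before it. The *Atg5* stretch holds an E-box followed by the CRE motif. The log2 differences of these 4 genes were -0.0037 for *Lamp1*, 0.17 for *Atg3*, -0.0086 for *Atg5* and 0.022 for *Atg14*, and *Atg3* alone of them had all 3 E3KO libraries above all controls. Without the library labelled E3KO replicate 1 they were 0.13, 0.18, -0.088 and -0.076 in the same order, so that *Lamp1* and *Atg14* changed sign. None of the windows of *Gabarap*, *Gabarapl1*, *Gabarapl2*, *Sqstm1* and *Tfeb* held any of the motifs searched.

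The ATG8 genes encode the small proteins that are conjugated to the autophagosome membrane and bind cargo receptors. Their 3 GABARAP genes were all higher in mean in E3KO, though none passed the test. *Gabarap* (chromosome 11, 69991143 to 69994951) was at 548, 488 and 563 FPKM in ECtrl, 519, 534 and 539 in EfCtrl and 651, 626 and 597 in E3KO. All 3 E3KO libraries were above all 6 controls. The log2 difference was 0.23 (SE 0.086, adjusted p = 0.155), with a 95% interval of 0.035 to 0.43, and 0.20 (adjusted p = 0.231) without the library labelled E3KO replicate 1.

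*Gabarapl1* (chromosome 6, 129532094 to 129542331, a locus that also covers the annotated gene *1700101I11Rik*) was at 168, 169 and 182 FPKM in ECtrl, 196, 186 and 192 in EfCtrl and 202, 236 and 205 in E3KO. Again no E3KO library overlapped a control. On the log2 scale the difference was 0.23 (SE 0.088, adjusted p = 0.163), and 0.27 (adjusted p = 0.141) without the library labelled E3KO replicate 1. It was 0.31 (adjusted p = 0.154) against ECtrl and 0.16 (adjusted p = 0.437) against EfCtrl, and the log2 difference of EfCtrl from ECtrl was 0.14 (adjusted p = 1).

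*Gabarapl2* (chromosome 8, 111940703 to 111953612) was at 121, 90.04 and 105 FPKM in ECtrl, 101, 96.9 and 107 in EfCtrl and 154, 128 and 109.5 in E3KO. E3KO replicate 3 lay within the range of ECtrl, and the library labelled E3KO replicate 1 was the highest of the 9. Its log2 difference was 0.32 (SE 0.14, adjusted p = 0.201), and 0.20 (adjusted p = 0.417) without that library. *Map1lc3a* (chromosome 2, 155276297 to 155278073), which encodes LC3A, went the other way, at 13.7, 8.77 and 8.82 FPKM in ECtrl, 15.5, 9.68 and 12.2 in EfCtrl and 3.10, 9.27 and 7.90 in E3KO. It was lowest in the library labelled E3KO replicate 1, while E3KO replicate 2 lay within the control range. Between E3KO and the controls the log2 difference was -0.76 (SE 0.30, adjusted p = 0.182), and -0.35 (adjusted p = 0.38) without it.

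The 4 ATG8 genes with a row summed to 851, 756 and 859 FPKM in ECtrl, 831, 827 and 850.5 in EfCtrl and 1011, 998 and 919.6 in E3KO. The E3KO mean was 1.18 times that of the controls, and the 2 sets of libraries did not overlap. This sum was looked at after the values of its genes had been seen and is given with no test. Over the core genes tested, E3KO was above all controls for 4 genes, or 10.8%, beside 5.18% of all genes, and below all controls for 0, beside 11.5% of all genes. The 4 were *Gabarap*, *Gabarapl1*, *Atg2b* and *Atg3*. With E3KO replicates 2 and 3 alone, 7 core genes were above all controls, beside 10.5% of all genes, and 0 were below, beside 16.1%. The 3 added, seen only after this count, were *Ambra1*, *Tax1bp1* and *Lamp1*.

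**Figure D3:**
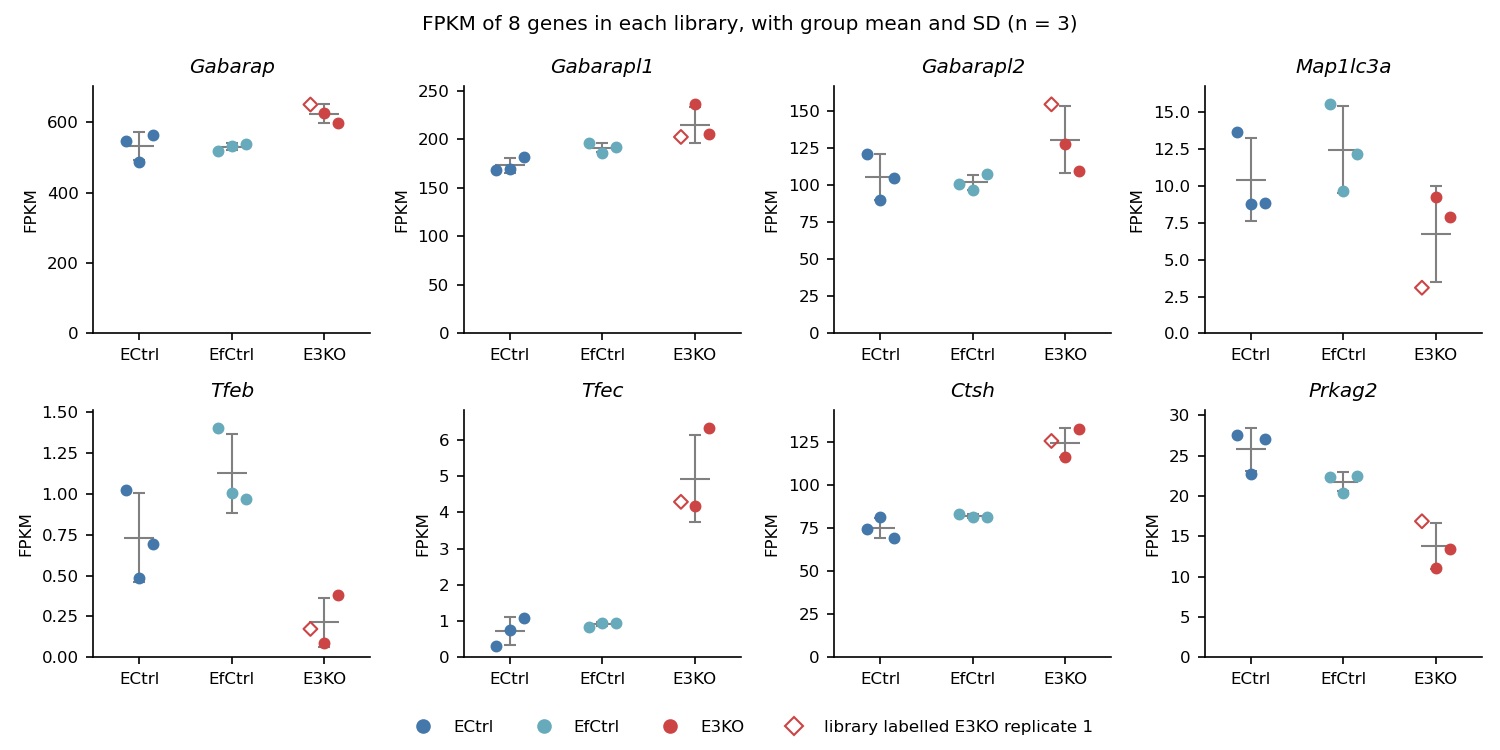
FPKM of 8 genes in each library, with the mean and SD of each group (n = 3) as grey bars and the library labelled E3KO replicate 1 as an open diamond, on axes that start at 0. *Gabarap*, *Gabarapl1*, *Tfec* and *Ctsh* were higher and *Tfeb* and *Prkag2* lower in every E3KO library than in any control library, while *Gabarapl2* and *Map1lc3a* overlapped.

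None of the 4 genes of the initiation kinase complex passed the test. *Ulk1*, the kinase gene that starts autophagy, averaged 17.3 FPKM in ECtrl, 18.5 in EfCtrl and 15.4 in E3KO. *Ulk2*, its close relative, averaged 22.4 FPKM in ECtrl, 23.3 in EfCtrl and 20.1 in E3KO. *Atg13*, the gene of a regulatory subunit, averaged 18.1 FPKM in ECtrl, 17.6 in EfCtrl and 16.2 in E3KO. The scaffold gene *Rb1cc1* (FIP200) averaged 41.4 FPKM in ECtrl, 38.3 in EfCtrl and 38.6 in E3KO. The log2 differences of the 4 genes ran from -0.22 to -0.026. *Ulk1*, *Ulk2* and *Atg13* were lowest of all in the library labelled E3KO replicate 1. Without it the 4 differences were -0.12 to 0.094.

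Among the genes of the class III PI3K complex, *Uvrag*, which encodes a Beclin-binding subunit of the endosomal form, had the smallest unadjusted p. *Uvrag* (chromosome 7, 98886743 to 99141144) was at 58.3, 55.6 and 56.4 FPKM in ECtrl, 55.6, 52.3 and 57.9 in EfCtrl and 78.3, 65.5 and 58.2 in E3KO. It was highest in the library labelled E3KO replicate 1, and E3KO replicate 3 lay within the ECtrl range. This was a log2 difference of 0.25 (SE 0.11, adjusted p = 0.205), and 0.14 (adjusted p = 0.403) without that library. *Becn1*, encoding Beclin 1, varied more among the controls, between 106 and 172 FPKM, than the group means differed. Its mean was 138 FPKM in the controls and 121 in E3KO. *Pik3c3*, the gene of the catalytic subunit VPS34, averaged 17.5 FPKM in ECtrl, 18.0 in EfCtrl and 16.6 in E3KO. *Pik3r4*, the gene of its VPS15 subunit, averaged 12.2 FPKM in ECtrl, 12.2 in EfCtrl and 9.61 in E3KO. *Atg14*, which directs the complex to autophagosome formation, averaged 12.6 FPKM in ECtrl, 12.7 in EfCtrl and 12.9 in E3KO. *Ambra1*, which encodes a Beclin-binding regulator, averaged 9.00 FPKM in ECtrl, 9.12 in EfCtrl and 9.25 in E3KO. The log2 differences of these 5 genes lay between -0.35 and 0.022, or -0.19 and 0.17 without the library labelled E3KO replicate 1, and *Pik3r4* was low in that library alone, at 6.31 FPKM against 10.7 or more in the controls.

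Of the 6 lipid supply and phosphoinositide effector genes, *Atg2b* alone did not overlap between E3KO and the controls. E3KO was above all controls for 5.18% of all genes tested and below all controls for 11.5%. *Atg2b* (chromosome 12, 105613539 to 105685241, over which *Gskip* is also annotated) encodes a lipid transfer protein. It was at 6.05, 7.41 and 8.40 FPKM in ECtrl, 8.12, 7.07 and 8.27 in EfCtrl and 9.76, 8.63 and 9.06 in E3KO. All 3 E3KO libraries were above all controls, by a small margin. The log2 difference was 0.25 (SE 0.11, adjusted p = 0.222), and 0.21 (adjusted p = 0.373) without the library labelled E3KO replicate 1. *Wdr45* (chromosome X, 7714333 to 7728201), encoding the phosphatidylinositol 3-phosphate effector WIPI4, was at 21.3, 15.2 and 20.003 FPKM in ECtrl, 21.0, 19.1 and 17.8 in EfCtrl and 16.7, 15.4 and 14.4 in E3KO. ECtrl replicate 2 fell among the E3KO libraries, and the log2 difference was -0.27 (SE 0.12, adjusted p = 0.224), or -0.33 (adjusted p = 0.216) without the library labelled E3KO replicate 1. *Atg2a*, which encodes the other lipid transfer protein, averaged 3.54 FPKM in ECtrl, 5.16 in EfCtrl and 5.26 in E3KO. *Atg9a*, the gene of the lipid scramblase on autophagosome precursor vesicles, averaged 10.1 FPKM in ECtrl, 10.6 in EfCtrl and 10.3 in E3KO. *Wipi1*, encoding a phosphatidylinositol 3-phosphate effector, averaged 63.2 FPKM in ECtrl, 65.9 in EfCtrl and 58.6 in E3KO. *Wipi2*, the effector gene that recruits ATG16L1, averaged 39.4 FPKM in ECtrl, 38.8 in EfCtrl and 37.2 in E3KO. The log2 differences of these 4 genes lay between -0.14 and 0.21. Without the library labelled E3KO replicate 1 they lay between -0.076 and 0.079, and 3 changed sign, with *Atg2a* going from 0.21 to -0.028, *Wipi2* from -0.078 to 0.079 and *Atg9a* from -0.0076 to 0.040.

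The conjugation enzymes attach ATG8 proteins to lipid. *Atg3* (chromosome 16, 45158785 to 45188538), the E2-like enzyme of this reaction, was picked out after its values had been seen and was at 20.8, 19.6 and 18.0 FPKM in ECtrl, 18.4, 19.96 and 18.9 in EfCtrl and 21.6, 22.01 and 21.8 in E3KO. E3KO was above all controls, with little spread in each group. On the log2 scale the difference was 0.17 (SE 0.083, adjusted p = 0.255), and 0.18 (adjusted p = 0.285) without the library labelled E3KO replicate 1. *Atg7*, the E1-like enzyme gene, averaged 10.4 FPKM in ECtrl, 9.66 in EfCtrl and 8.95 in E3KO. *Atg10*, the E2-like enzyme gene of the ATG12 branch, averaged 6.24 FPKM in ECtrl, 6.82 in EfCtrl and 6.67 in E3KO. *Atg5*, whose product carries ATG12, averaged 18.2 FPKM in ECtrl, 18.97 in EfCtrl and 18.5 in E3KO. *Atg16l1*, which encodes the membrane-targeting partner of the ATG12-ATG5 conjugate, averaged 13.2 FPKM in ECtrl, 14.2 in EfCtrl and 11.8 in E3KO. Its paralog *Atg16l2* was low and varied most among the controls, between 1.80 and 6.35 FPKM, with 0.394, 2.46 and 2.499 in E3KO. *Atg12*, which encodes the ubiquitin-like partner of ATG5, was singled out after its values had been seen because 1 library set its mean. It was at 14.04 FPKM in the library labelled E3KO replicate 1 and at 30.5 to 35.6 in the other 8. The log2 differences of the 6 genes ran from -0.74 to 0.00081 with 9 libraries and from -0.30 to 0.039 without it.

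ATG4 proteases prime the ATG8 proteins and release them from membranes. *Atg4c* (chromosome 4, 99193934 to 99259787) was at 6.84, 6.67 and 6.61 FPKM in ECtrl, 6.95, 5.31 and 6.45 in EfCtrl and 2.58, 6.04 and 5.29 in E3KO, with a log2 difference of -0.46 (SE 0.21, adjusted p = 0.218), and of -0.16 (adjusted p = 0.427) without the library labelled E3KO replicate 1, in which it was lowest. *Atg4b*, the protease gene of highest level here, averaged 21.8 FPKM in ECtrl, 19.8 in EfCtrl and 20.7 in E3KO. *Atg4d* was below 1 FPKM in each group mean. *Atg4a* was at 2.17, 3.399 and 3.11 FPKM in ECtrl, 2.17, 3.23 and 2.88 in EfCtrl and 4.08, 4.95 and 2.89 in E3KO. It had a log2 difference of 0.37, the highest of the core genes tested, with an interval of -0.028 to 0.77.

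The cargo receptors, whose proteins link ubiquitin-marked cargo to ATG8, overlapped between the groups. *Sqstm1* (chromosome 11, 50174444 to 50210827, a locus that also covers *Mrnip*) was at 425, 380.2 and 467 FPKM in ECtrl, 409.9, 447 and 419.6 in EfCtrl and 428, 489 and 461 in E3KO. Its log2 difference was 0.11 (SE 0.098, adjusted p = 0.502), with an interval of -0.11 to 0.34, and 0.16 (adjusted p = 0.395) without the library labelled E3KO replicate 1. *Nbr1*, a receptor gene related in function to *Sqstm1*, averaged 94.5 FPKM in ECtrl, 91.9 in EfCtrl and 93.3 in E3KO. *Tax1bp1*, which encodes a receptor that also binds ubiquitin, averaged 86.2 FPKM in ECtrl, 86.4 in EfCtrl and 91.6 in E3KO. *Optn*, encoding the mitophagy receptor optineurin and singled out after its values had been seen, was at 22.5 FPKM in the library labelled E3KO replicate 1 and at 11.1 to 15.1 in the rest, and its log2 difference was 0.12 with that library and -0.17 without it.

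The lysosomal membrane glycoproteins, which line the inner face of the membrane, overlapped between E3KO and the controls. *Lamp1* (chromosome 8, 13159135 to 13175338, over which *Grtp1* is also annotated), the gene with 4 E-boxes near its start, was at 763, 786 and 841 FPKM in ECtrl, 755, 838 and 789 in EfCtrl and 659, 884 and 855 in E3KO. Between E3KO and the controls the log2 difference was -0.0037 (SE 0.11, adjusted p = 0.986), with an interval of -0.27 to 0.26. *Lamp2* (chromosome X, 38401357 to 38456454) was at 461, 452 and 429 FPKM in ECtrl, 420.3, 457 and 463 in EfCtrl and 396, 469 and 446 in E3KO, with a log2 difference of -0.035 (SE 0.091, adjusted p = 0.833) and an interval of -0.24 to 0.17. Both genes were lowest in the library labelled E3KO replicate 1. Without it the log2 differences were 0.13 (adjusted p = 0.425) and 0.033 (adjusted p = 0.848), of the opposite sign.

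Of the MiT/TFE transcription factors, which bind motifs of the E-box kind, *Tfeb* and *Tfe3* are core genes and *Mitf* and *Tfec* belong to the wider list. *Tfeb* (chromosome 17, 47737030 to 47792419) was at 1.02, 0.482 and 0.691 FPKM in ECtrl, 1.40, 1.00 and 0.969 in EfCtrl and 0.174, 0.0910 and 0.380 in E3KO. Every E3KO library was below every control library, at levels below 2 FPKM throughout. *Tfeb* was outside the fit because its mean was below 2 FPKM. With no minimum its log2 difference was -0.66 (SE 0.12, adjusted p = 0.0541), which did not pass. With a minimum of 1 FPKM its adjusted p was 0.0403, beside 3.95% of all genes called. It met that minimum only through EfCtrl, with a mean of 1.12 FPKM against 0.732 in ECtrl and 0.215 in E3KO, so that this value is given as a description and not as a call. *Tfe3* (chromosome X, 7762560 to 7775202) was at 27.2, 19.7 and 29.7 FPKM in ECtrl, 25.7, 24.9 and 22.7 in EfCtrl and 26.9, 26.3 and 25.1 in E3KO. Its log2 difference was 0.070 (SE 0.13, adjusted p = 0.768), and 0.049 (adjusted p = 0.881) without the library labelled E3KO replicate 1.

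*Tfec* (chromosome 6, 16833381 to 16898441), a member of the same family known best from myeloid cells, had the largest difference of the 137 genes tested from the wider lists. It was at 0.319, 0.747 and 1.10 FPKM in ECtrl, 0.849, 0.958 and 0.940 in EfCtrl and 4.29, 4.17 and 6.31 in E3KO. All E3KO libraries were well above all controls. This was a log2 difference of 1.70 (SE 0.17, adjusted p = 0.00972), and 1.77 (adjusted p = 0.0235) without the library labelled E3KO replicate 1. It was called under all 15 alternatives, with adjusted p from 0.00785 to 0.042. By control group it was 1.79 (adjusted p = 0.0188) against ECtrl and 1.61 (adjusted p = 0.0287) against EfCtrl. *Tfec* met the minimum of 2 FPKM only through E3KO, and with no minimum its adjusted p was 0.0182. Of 12 macrophage and leukocyte markers, 11 were also higher in mean in E3KO than in both control groups together, but fewer against EfCtrl alone. Their values are given with the markers, and their part in the value of *Tfec* was not tested. *Mitf* averaged 1.45 FPKM in the controls and 1.58 in E3KO and was below the minimum for the fit.

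The wider machinery was followed through 7 lists with 144 further genes, of which 143 had a row and 137 were tested. At an adjusted p under 0.05, 3 of these were higher and 1 lower (2.92%, beside 4.8% of all genes). Of the 3, *Tfec* and *Rragd* met the minimum of 2 FPKM only through E3KO, so the 2.92% is given as a description and not as a result about the lists. With no minimum *Tfec* still passed and *Rragd* did not. At an unadjusted p under 0.05, 12 were higher and 17 lower (8.76% and 12.4%, beside 6.93% and 16.9% of all genes). Without the library labelled E3KO replicate 1, 4 were called beside 3.58% of all genes. At an unadjusted p under 0.05, 17 were then higher and 15 lower, or 12.4% and 10.9%, beside 8.37% and 14.2% of all genes. *Tfec* and *Rragd* are among the 12 and the 17 higher genes, and *Tfec* is among the 4 called. These counts and shares are therefore also given as a description and not as a result about the lists. The median log2 difference over these lists was -0.098, and -0.0042 without that library. The lists were compiled with earlier results of these data known.

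Of 38 lysosomal hydrolases and cofactors, 1 rose and 0 fell, or 2.63% called, beside 4.8% of all genes. The median log2 difference was -0.11, and 0.0084 without the library labelled E3KO replicate 1. At an unadjusted p under 0.05, 3 were higher and 8 lower (7.89% and 21.1%, beside 6.93% and 16.9% of all genes). Without that library 7 were higher and 6 lower, or 18.4% and 15.8%, beside 8.37% and 14.2% of all genes. The gene that rose was *Ctsh* (chromosome 9, 90054152 to 90076089), which encodes the protease cathepsin H. It was at 74.3, 81.4 and 69.5 FPKM in ECtrl, 83.2, 81.4 and 81.7 in EfCtrl and 126, 116 and 132 in E3KO, without overlap. The log2 difference was 0.66 (SE 0.090, adjusted p = 0.0125), and 0.65 (adjusted p = 0.0261) without the library labelled E3KO replicate 1. By control group it was 0.73 (adjusted p = 0.023) against ECtrl and 0.60 (adjusted p = 0.0458) against EfCtrl. Its call was lost only without E3KO replicate 3, with an adjusted p of 0.0746, among the 15 alternatives. The macrophage and leukocyte markers summed to 88.1 to 332 FPKM in the controls and to 275, 361 and 407 in E3KO, and their part in the value of *Ctsh* was not tested.

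In the list of mTORC1 and AMPK control, which sets when autophagy starts, *Prkag2* alone of 23 tested was called, beside 4.8% of all genes. *Rragd* also had an adjusted p under 0.05 but met the minimum only through E3KO, so it is described and not counted as a call. At an unadjusted p under 0.05, 1 was higher and 2 were lower (4.35% and 8.70%, beside 6.93% and 16.9% of all genes). The higher one was *Rragd*, so that its share is given as a description only. The list had a median log2 difference of -0.12, and -0.016 without the library labelled E3KO replicate 1. *Prkag2* (chromosome 5, 24862744 to 25100642), the gene of a regulatory subunit of AMPK, fell. It was at 27.5, 22.8 and 27.0 FPKM in ECtrl, 22.4, 20.4 and 22.4 in EfCtrl and 16.9, 11.1 and 13.5 in E3KO, without overlap. On the log2 scale the difference was -0.75 (SE 0.13, adjusted p = 0.0237), and -0.89 (adjusted p = 0.0235) without the library labelled E3KO replicate 1. By control group it was -0.87 (adjusted p = 0.0357) against ECtrl and -0.63 (adjusted p = 0.0981) against EfCtrl, so that it was not called against EfCtrl. Its call against the mean of both was lost without E3KO replicate 2, without E3KO replicate 3, without EfCtrl replicate 1 and without EfCtrl replicate 3, with adjusted p up to 0.0948. The locus also covers 3 annotated non-coding genes, and whether counting used strand is not given in the sources used here. *Rragd* (chromosome 4, 32983037 to 33022180), which encodes a Rag GTPase that recruits mTORC1 to the lysosome, was at 1.39, 1.19 and 1.73 FPKM in ECtrl, 1.28, 1.91 and 1.079 in EfCtrl and 2.33, 2.53 and 3.04 in E3KO. It met the minimum of 2 FPKM only through E3KO. Its log2 difference was 0.59 (SE 0.14, adjusted p = 0.0495), and 0.65 (adjusted p = 0.0631) without the library labelled E3KO replicate 1, and by control group 0.58 (adjusted p = 0.0941) against ECtrl and 0.59 (adjusted p = 0.114) against EfCtrl, neither of which passed. Its adjusted p was under 0.05 in 2 of the 15 alternatives, and not with a minimum of 1 FPKM (adjusted p = 0.0545) or with none (adjusted p = 0.0736).

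Of 16 subunits of the V-ATPase, the proton pump of the lysosome, 0 passed the test and 3 were higher and 0 lower at an unadjusted p under 0.05 (18.8% and 0%, beside 6.93% and 16.9% of all genes), with a median log2 difference of 0.11, and 0.091 without the library labelled E3KO replicate 1. Without that library 1 was called, beside 3.58% of all genes. At an unadjusted p under 0.05, 4 were then higher and 1 lower (25% and 6.25%, beside 8.37% and 14.2% of all genes). *Atp6v0a1* was at 36.7, 41.5 and 49.0 FPKM in ECtrl, 43.0, 45.6 and 50.2 in EfCtrl and 74.1, 59.2 and 57.1 in E3KO, with a log2 difference of 0.51 (SE 0.13, adjusted p = 0.0662), and 0.39 (adjusted p = 0.124) without the library labelled E3KO replicate 1. *Atp6v1a*, which encodes the catalytic subunit, was at 94.6, 99.7 and 113 FPKM in ECtrl, 98.5, 105 and 106 in EfCtrl and 104, 151 and 141 in E3KO, with a log2 difference of 0.34 (SE 0.13, adjusted p = 0.174). Its E3KO replicates 2 and 3 were above all controls and the library labelled E3KO replicate 1 among them, and without that library the log2 difference was 0.50 (adjusted p = 0.0401). *Atp6v1a* was called under this 1 of the 15 alternatives only. Across them its log2 difference went down to 0.23 and its adjusted p up to 0.336, without E3KO replicate 2. Of 19 genes of lysosomal membrane and transport 0 passed, with a median of -0.020, and -0.15 without the library labelled E3KO replicate 1, and 2 were higher and 1 lower at an unadjusted p under 0.05 (10.5% and 5.26%, beside 6.93% and 16.9% of all genes). Without that library 3 were higher and 2 lower, or 15.8% and 10.5%, beside 8.37% and 14.2% of all genes. *Igf2r*, the gene of the mannose 6-phosphate receptor that carries hydrolases to lysosomes, was at 6.17, 11.1 and 13.4 FPKM in ECtrl, 10.7, 11.9 and 11.5 in EfCtrl and 14.3, 17.6 and 21.8 in E3KO and had a log2 difference of 0.69 (SE 0.22, adjusted p = 0.114), and 0.84 (adjusted p = 0.101) without the library labelled E3KO replicate 1. E3KO did not overlap the controls. *Sort1*, encoding sortilin, was at 10.3, 10.0 and 12.2 FPKM in ECtrl, 10.7, 10.3 and 10.2 in EfCtrl and 4.79, 8.81 and 8.51 in E3KO and had a log2 difference of -0.51 (SE 0.17, adjusted p = 0.13), and -0.26 (adjusted p = 0.17) without the library labelled E3KO replicate 1. It was lower in every E3KO library than in any control. Of the 19 genes, E3KO was above all controls for 2 and below for 2, beside 5.18% and 11.5% of all genes.

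Of 21 genes of autophagosome formation and fusion 0 passed the test, with a median log2 difference of -0.12, and 0.016, of the opposite sign, without the library labelled E3KO replicate 1. Of the 21, 1 was higher and 0 lower at an unadjusted p under 0.05 (4.76% and 0%, beside 6.93% and 16.9% of all genes). Without that library the count turned round, with 0 higher and 1 lower (0% and 4.76%, beside 8.37% and 14.2% of all genes). *Ykt6*, which encodes a SNARE of autophagosome fusion, had 68.1 ± 4.95 (SD, n = 6) FPKM in the controls and 79.8 ± 3.82 (SD, n = 3) in E3KO, a log2 difference of 0.23 (SE 0.093, adjusted p = 0.188), and 0.20 (adjusted p = 0.282) without the library labelled E3KO replicate 1. *Vps39*, of the HOPS tethering complex, had 18.0 ± 1.53 (SD, n = 6) and 14.5 ± 3.96 (SD, n = 3) FPKM, a log2 difference of -0.33 (SE 0.17, adjusted p = 0.276), and -0.10 (adjusted p = 0.637) without the library labelled E3KO replicate 1. Of 16 tested genes of mitophagy and Beclin binding 0 passed, with 1 higher and 5 lower at an unadjusted p under 0.05 (6.25% and 31.2%, beside 6.93% and 16.9% of all genes) and a median of -0.11. Without the library labelled E3KO replicate 1, 1 was higher and 3 were lower, or 6.25% and 18.8%, beside 8.37% and 14.2% of all genes, and the median was -0.16. *Pink1*, the kinase gene of mitophagy, was at 29.4, 24.8 and 27.4 FPKM in ECtrl, 25.7, 28.6 and 28.7 in EfCtrl and 19.8, 24.7 and 20.4 in E3KO, with a log2 difference of -0.33 (SE 0.11, adjusted p = 0.113), and -0.28 (adjusted p = 0.204) without the library labelled E3KO replicate 1. *Dram1*, encoding a lysosomal membrane protein, had 5.52 ± 0.333 (SD, n = 6) FPKM in the controls and 4.33 ± 0.537 (SD, n = 3) in E3KO, a log2 difference of -0.30 (SE 0.097, adjusted p = 0.122), and -0.24 (adjusted p = 0.211) without the library labelled E3KO replicate 1. In both, every E3KO library was below every control library. This held for 6 of the 16 genes, beside 11.5% of all genes, and 0 were above all controls, beside 5.18%.

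In the list of FoxO and MiT factors, *Tfec* alone of 4 tested had an adjusted p under 0.05, beside 4.8% of all genes, and no FoxO factor was called. *Tfec* met the minimum of 2 FPKM only through E3KO, so its value describes that gene and not the list. The median log2 difference was -0.23, and -0.11 without the library labelled E3KO replicate 1. Of the 4, 1 was higher and 1 lower at an unadjusted p under 0.05, beside 6.93% and 16.9% of all genes, and the same numbers without that library. The higher one was *Tfec*, so that its count is given as a description only. The lower one was *Foxo4*, named after its values had been seen, at 9.51, 8.49 and 9.59 FPKM in ECtrl, 9.11, 8.83 and 10.3 in EfCtrl and 6.93, 7.49 and 7.997 in E3KO. Its E3KO libraries were below all controls, with a log2 difference of -0.28 (SE 0.094, adjusted p = 0.124), and -0.24 (adjusted p = 0.207) without the library labelled E3KO replicate 1. *Foxo1* was at 40.5, 39.3 and 42.5 FPKM in ECtrl, 42.4, 38.997 and 42.8 in EfCtrl and 33.5, 37.3 and 37.8 in E3KO, with a log2 difference of -0.18 (SE 0.086, adjusted p = 0.247), and -0.13 (adjusted p = 0.417) without the library labelled E3KO replicate 1. Its E3KO libraries were below all controls by a small margin. Of the 4 tested, 2 were below all controls in E3KO, beside 11.5% of all genes, and 1 (*Tfec*) was above. *Foxo3* was at 14.3, 14.9 and 16.8 FPKM in ECtrl, 15.3, 15.2 and 16.7 in EfCtrl and 9.55, 13.9 and 15.2 in E3KO, with a log2 difference of -0.27 (SE 0.14, adjusted p = 0.279), and -0.089 (adjusted p = 0.632) without the library labelled E3KO replicate 1. *Bnip3*, encoding a mitophagy receptor and a FoxO target, was at 13.5, 13.2 and 9.92 FPKM in ECtrl, 13.0, 11.0 and 12.4 in EfCtrl and 13.8, 12.6 and 12.3 in E3KO, with a log2 difference of 0.084 (SE 0.12, adjusted p = 0.684) and an interval of -0.19 to 0.35, and 0.039 (adjusted p = 0.89) without the library labelled E3KO replicate 1. *Bcl2*, whose protein binds Beclin 1, averaged 1.32 FPKM in the controls and 1.27 in E3KO and was below the minimum for the fit.

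**Figure D4:**
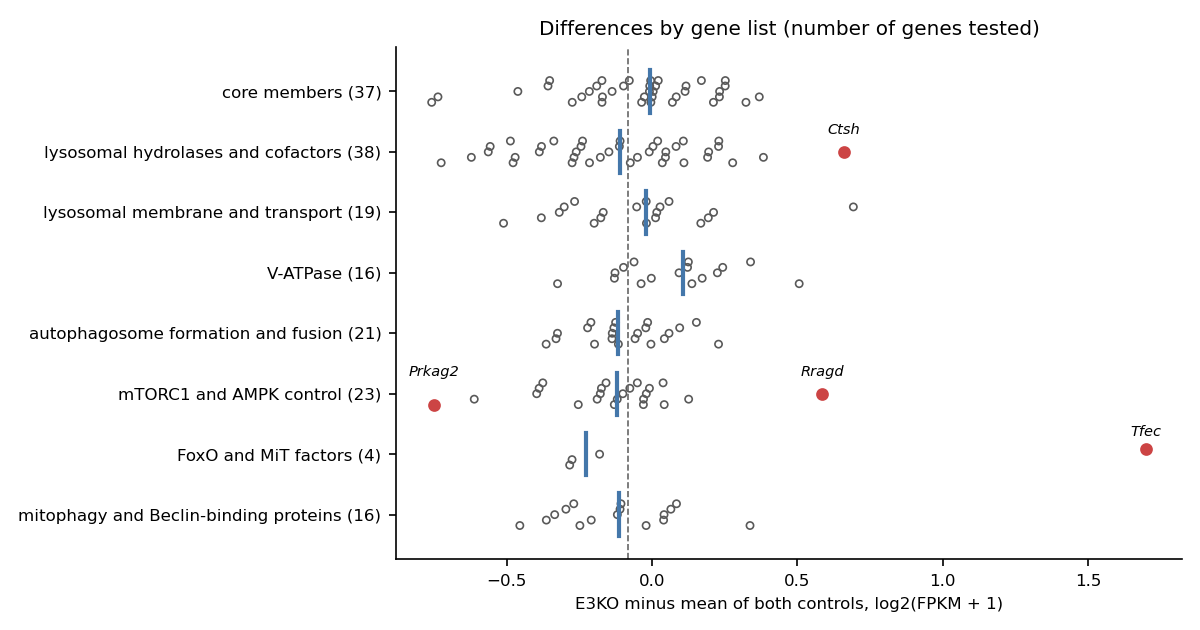
Difference in log2(FPKM + 1) between E3KO and the mean of both controls for each gene tested, by list, with the number of genes in parentheses. Red points are the 4 genes with an adjusted p under 0.05 (*Ctsh*, *Prkag2*, *Rragd* and *Tfec*), open points the others, blue bars the list medians, and the dashed line the median of all genes tested at -0.083. Of the 4, *Rragd* and *Tfec* met the FPKM minimum only through E3KO. The 37 core genes have a median of -0.0076 and no red point.

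Markers of other cell types that the cultures could hold were measured beside these results. The 12 macrophage and leukocyte markers, led by *Lyz2* at 28.03 to 221 FPKM, summed to 88.1, 196 and 176 FPKM in ECtrl, 239, 332 and 196 in EfCtrl and 275, 361 and 407 in E3KO (exact two-sided permutation test, p = 0.0476, 0.119 after Benjamini-Hochberg adjustment over 5 marker lists). E3KO replicates 2 and 3 were above all controls in this sum, and the library labelled E3KO replicate 1 was above all but EfCtrl replicate 2. Of the 12, 11 had a higher mean in E3KO, and 2 (*Itgam* and *Fcer1g*) had every E3KO library above every control library. Over all genes tested, 4053 of 10605 had a log2 difference above 0, and 5.18% had every E3KO library above every control library. *Itgam* was below the minimum for the fit. None of the 8 tested was called with 9 libraries, beside 4.8% of all genes. *Cd68*, the gene of a lysosomal glycoprotein of macrophages, was at 12.8, 14.7 and 17.8 FPKM in ECtrl, 24.6, 26.8 and 18.4 in EfCtrl and 17.6, 40.3 and 50.6 in E3KO. Its log2 difference was 0.80 (SE 0.30, adjusted p = 0.165), and without the library labelled E3KO replicate 1 it was called, at 1.24 (adjusted p = 0.0261). *Fcer1g* had a log2 difference of 0.85 (SE 0.25, adjusted p = 0.0963) and *Lyz2* of 0.98 (SE 0.42, adjusted p = 0.202). The defining leukocyte gene *Ptprc* and the macrophage gene *Emr1* were at most 1.59 and 1.42 FPKM. *Cd68*, *Fcer1g* and *Itgam* were named after their values had been seen. The part of leukocytes in the values of *Tfec*, *Ctsh* and the core genes was not tested.

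The 10 endothelial markers summed to 2989, 3398 and 3728 FPKM in ECtrl, 3455, 3536 and 3366 in EfCtrl and 3667, 4118 and 3930.2 in E3KO (exact permutation test, p = 0.0238, adjusted p = 0.119). The 9 markers other than *Emcn* summed to 2167 to 2695 FPKM in the controls and to 2110.4, 2666 and 2454 in E3KO, with means of 2439 and 2409.8 FPKM, so that the higher total lay in *Emcn*. This sum was formed after the values had been seen and is given with no test. *Emcn*, the most abundant of them, rose by 0.63 on the log2 scale (adjusted p = 0.026). It was the 1 endothelial marker called of 9 tested, beside 4.8% of all genes. Its call was lost without any 1 of the 3 E3KO libraries and without EfCtrl replicate 1 or 3, with adjusted p up to 0.0948, and with the replicate number as a block (adjusted p = 0.0579). By control group it was 0.61 (adjusted p = 0.0572) against ECtrl and 0.64 (adjusted p = 0.0692) against EfCtrl, neither of which passed. Fibroblast markers summed to 9.04 to 32.0 FPKM in the controls and to 4.63, 10.0 and 15.2 in E3KO (exact permutation test, p = 0.143, adjusted p = 0.179), led by *Dcn* and with *Pdgfra*, *Lum* and *Postn* below 1 FPKM in every library. Smooth muscle and pericyte markers, led by *Acta2*, summed to 8.42 to 56.2 FPKM in the controls and to 7.93, 12.5 and 13.7 in E3KO (exact permutation test, p = 0.0833, adjusted p = 0.139). Epithelial markers summed to at most 6.05 FPKM in the controls and in E3KO replicates 2 and 3, but to 51.3 FPKM in the library labelled E3KO replicate 1, of which 46.2 FPKM was *Scgb1a1*, a secretory cell gene (exact permutation test, p = 0.19, adjusted p = 0.19). The part of these cells in the values of the core genes was not tested.

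**Figure D5:**
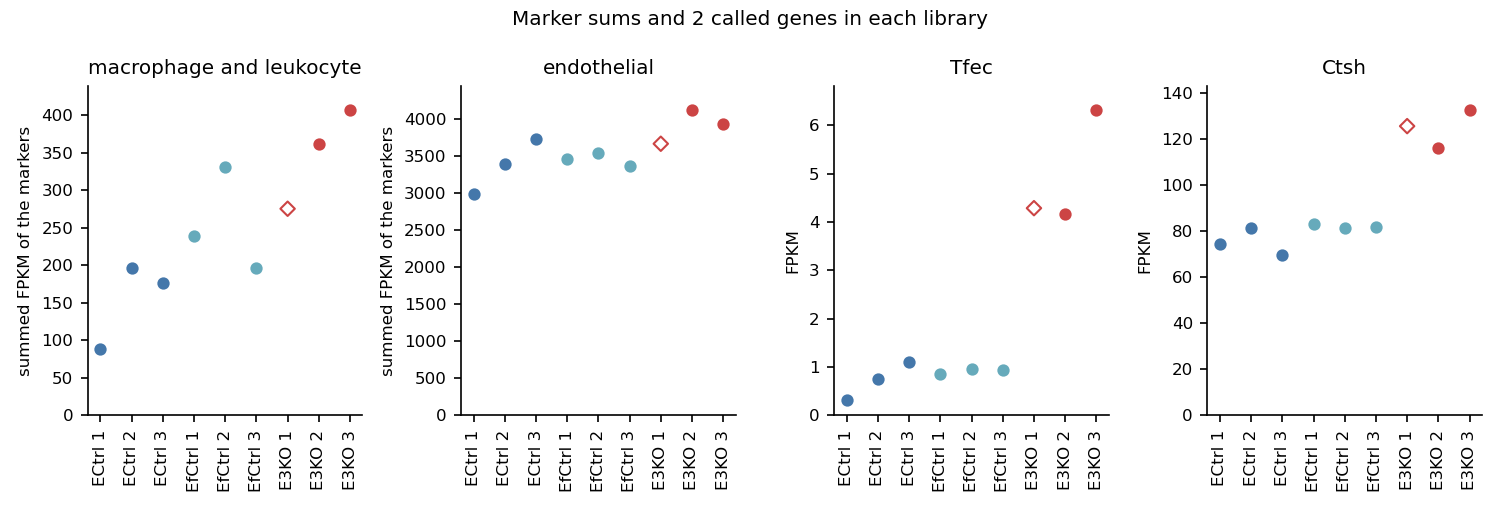
Summed FPKM of the 12 macrophage and leukocyte markers and of the 10 endothelial markers, and FPKM of *Tfec* and *Ctsh*, in each of the 9 libraries (blue ECtrl, light blue EfCtrl, red E3KO, open diamond the library labelled E3KO replicate 1), on axes that start at 0. The macrophage and leukocyte sum is above all controls in E3KO replicates 2 and 3, and *Tfec* and *Ctsh* are higher in every E3KO library than in any control library.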

How the data were processed

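RNA was isolated from 9 independent MLEC cultures, 3 for each of ECtrl, EfCtrl and E3KO. Per the study's methods, the authors aligned paired-end reads to the mm10 build with TopHat2 and quantified transcripts with Cufflinks (version 1.0.3 in the submitters' processing notes, which also list Bowtie), Cuffmerge and Cuffdiff. The tables deposited by the authors give FPKM per library and per group, which already divide by transcript length and by mapped fragments. Columns with the authors' own fold changes, test statistics, p-values and q-values were not used. Strand use in counting is not given in the sources used here. Of 37104 loci, 33353 had a unique symbol, 3749 shared a symbol and were left out, and 2 had no library values.

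The 10605 genes whose mean reached 2 FPKM in at least 1 group entered limma 3.58.1 in R 4.3.3 as log2(FPKM + 1), with 3 group means, all 9 libraries and Benjamini-Hochberg adjustment over the genes tested. Sums and permutation tests used Python 3.11.15 with scipy 1.17.1, and the limma step was tested on simulated data. Steps between low FPKM values gave only a rough relative depth, so FPKM were not turned back into reads. Genes were described in full if they were among the 8 core genes with the smallest unadjusted p, were ATG8 genes, *Sqstm1*, *Tfeb*, *Tfe3*, *Lamp1* or *Lamp2*, or were targeted. In the wider lists, these were the genes with an adjusted p under 0.05, or the 2 with the smallest p in a list that had none. *Foxo1*, *Foxo3*, *Bnip3* and *Bcl2* were added by name. The core genes, the wider lists and the alternatives were chosen with earlier results of these data known. *Park2* was not analysed here because 2 loci share its symbol. Other genes over a locus were read from GENCODE M21. They also lay over loci for which none is named above. Examples are *Gm45188* and *Gm45187* over *Uvrag*, *Gm45208* over *Wdr45*, and *Coa3* and *Cntd1* over *Becn1*. Alternatives were another pseudocount (0.1), FPKM minimum (1 or none), centring of libraries, a mean-variance trend, the replicate number as a block, and each library left out. The group FPKM, and the left-out libraries and the block for targeted genes and marker sums, were added after seeing the data.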

Additional observations from a re-analysis of the deposited data

How the results depend on the processing

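The count of core genes called stayed at 0 in all 4 comparisons under each alternative, apart from 1 (*Tfeb*) against the mean of both controls with an FPKM minimum of 1, which it met only through EfCtrl. No adjusted p of the 12 core genes described in full with a fitted difference fell under 0.05 under any alternative, and 9 of their 192 values changed sign. These were *Lamp1* with library centring (0.067), without E3KO replicate 1 (0.13), without ECtrl replicate 3 (0.016), without EfCtrl replicate 2 (0.016) and with the authors' group FPKM (0.13), *Lamp2* with library centring (0.036), without E3KO replicate 1 (0.033) and with the group FPKM (0.10), and *Tfe3* without ECtrl replicate 2 (-0.015). Leaving out 1 library gave -0.082 to 0.13 for *Lamp1* and -0.088 to 0.033 for *Lamp2*. With the group FPKM *Gabarap* was at 0.36. The median of all genes tested also moved, from -0.083 to 0.045 with the group FPKM and to -0.012 with library centring.

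Over all genes, leaving out 1 library gave 9 to 408 calls against the mean of both controls, 0 to 215 against ECtrl, 1 to 218 against EfCtrl and 0 to 4 between the controls. With no FPKM minimum, the counts were 95 against ECtrl and 17 against EfCtrl. For the targeted genes, left-out libraries gave log2 differences of -1.18 to -0.21 for *Mapk8* and of -0.93 to -0.56 for *Mapk9*. For the marker sums, they gave differences of 387 to 612 FPKM (endothelial), 114 to 179.5 FPKM (macrophage and leukocyte) and -0.34 to 23.9 FPKM (epithelial, -0.34 without E3KO replicate 1). The causes were not tested.

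Replicate numbers were shared by the groups, but correlations of deviations between same-numbered libraries lay between -0.040 and 0.12, so the numbers were not taken to pair libraries. With a replicate block the calls were 202, 1 and 1 against the mean of both controls, ECtrl and EfCtrl, and *Mapk9* was at -0.75 (adjusted p = 0.0756, limma). FPKM carry no fragment counts, so differences of genes below 2 FPKM, such as *Tfeb*, *Atg4d*, *Mitf* and *Bcl2*, cannot be set against counting error.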
